A study of Mus musculus with 9 samples.

Results

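The genes described here encode the enzymes that hydroxylate and crosslink collagen. They are the prolyl 4-hydroxylase subunits P4ha1, P4ha2, P4ha3 and P4hb, the lysyl hydroxylases Plod1, Plod2 and Plod3, and the lysyl oxidases Lox, Loxl2 and Loxl4. The 10 genes were taken by symbol from the 46517 genes in the tables, with earlier results of these data known. RNA sequencing was performed on 9 cultures of mouse duodenal organoids, 3 transduced with Ad-GFP, 3 with Ad-hHIF2 and 3 with Ad-hHIF1, numbered 1, 3 and 4 in each group. The organoids were wild type, came from crypts of C57BL/6J mice and were grown in basement membrane matrix with L-WRN conditioned medium at 5% oxygen. After transduction the medium also held a ROCK inhibitor, an inhibitor of the TGF-β type I receptor kinase and nicotinamide, in all groups. The viruses were added at a dose of 50 particles per cell about 72 hours before the RNA was collected. Ad-GFP carries green fluorescent protein only. Ad-hHIF2 and Ad-hHIF1 carry human hypoxia-inducible factors in which a pair of prolines was replaced by alanine, so that the VHL ubiquitin ligase no longer marks them for degradation. The transgenes were driven transiently from a virus in unsorted cultures, and all groups, the control included, were transduced and kept at low oxygen. The study calls them biological replicates, but the labels do not say whether the 3 numbers mark separate mice, so the p-values measure the spread between these cultures.

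As background, collagen chains are modified in the endoplasmic reticulum before they fold into a triple helix. Prolyl 4-hydroxylase is a tetramer of α subunits, which hold the active site, and of the β subunit P4hb, which is protein disulfide isomerase. The lysyl hydroxylases modify lysines that later carry sugars or crosslinks, and all of these hydroxylases need oxygen, iron, 2-oxoglutarate and ascorbate, as do the EGLN enzymes that sense oxygen for the HIFs. Lysyl oxidases are secreted copper enzymes that oxidize lysines so that collagen and elastin chains become crosslinked. In the intestine, crypts rest on a basement membrane rich in type IV collagen, while most fibrillar collagen is made by the stromal cells around them. P4HA1, P4HA2, PLOD2, LOX and LOXL2 are known from other cells as genes that respond to low oxygen.

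On the GRCm38 assembly (GENCODE M21), P4ha1 lies at chr10:59323296-59373304 on the plus strand, P4ha2 at chr11:54100095-54131665 on the plus strand and P4hb at chr11:120560298-120573253 on the minus strand. Plod1 lies at chr4:147909753-147936767 on the minus strand, Plod2 at chr9:92542223-92608428 on the plus strand and Plod3 at chr5:136987019-136996648 on the plus strand. Loxl2 lies at chr14:69609068-69695834 on the plus strand and Loxl4 at chr19:42593982-42612813 on the minus strand. Each is annotated as protein-coding. The annotation places Znhit1 on the strand opposite Plod3 and the antisense gene Gm27177 opposite Loxl2. The strandedness of the libraries is not given in the sources used here. The counts of P4ha2, Plod2, Plod3 and Loxl2 were not whole numbers in any of the 9 samples, so part of their reads was shared out by the estimation, whereas those of P4ha1, P4hb and Loxl4 were whole in all 9.

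The proximal promoters of these prolyl 4-hydroxylase subunits are shown because P4ha1 moved in the opposite direction to P4ha2 and P4hb below. Each is the 250 bases before the RefSeq start (GRCm38.p6), read 5′ to 3′ on the gene's own strand. The P4ha1 window is chr10:59323046-59323295, plus strand. The P4ha2 window is chr11:54100674-54100923, plus strand, and lies inside the GENCODE span of the gene. The P4hb window is chr11:120573254-120573503, minus strand. Capitals mark ACGTG and GCGTG, the core letters of the hypoxia response element, which read CACGT and CACGC where they lie on the other strand.
P4ha1: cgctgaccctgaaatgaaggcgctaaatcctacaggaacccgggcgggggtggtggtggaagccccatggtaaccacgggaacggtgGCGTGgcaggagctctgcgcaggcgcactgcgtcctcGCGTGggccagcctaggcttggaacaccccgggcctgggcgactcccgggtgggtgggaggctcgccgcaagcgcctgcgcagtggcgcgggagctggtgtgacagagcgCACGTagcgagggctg
P4ha2: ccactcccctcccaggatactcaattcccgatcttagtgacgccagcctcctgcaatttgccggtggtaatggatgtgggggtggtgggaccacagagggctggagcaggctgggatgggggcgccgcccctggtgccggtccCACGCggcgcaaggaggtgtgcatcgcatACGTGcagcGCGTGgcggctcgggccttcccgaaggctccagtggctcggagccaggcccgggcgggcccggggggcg
P4hb: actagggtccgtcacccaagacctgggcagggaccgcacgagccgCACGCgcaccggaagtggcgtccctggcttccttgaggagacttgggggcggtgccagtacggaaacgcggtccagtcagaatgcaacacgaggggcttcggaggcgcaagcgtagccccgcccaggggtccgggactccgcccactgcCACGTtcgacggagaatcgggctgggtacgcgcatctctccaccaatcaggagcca
These letters occurred 3 times in the P4ha1 window, 3 times in the P4ha2 window and 2 times in the P4hb window. Of 32851 mouse promoter windows of the same length, 38.6% held at least 1 such match, 16.7% at least 2 and 6.58% at least 3, with a CACGTG run counted on each strand. Plod3 had 4 matches, Plod1 and Loxl4 had 1 each and P4ha3 had 0, and 7 of the 10 genes had a window in the table used. A match in these letters is a description of the sequence and not evidence of binding, and P4ha1 and P4ha2 held the same number of matches.

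The libraries held 21722618 to 51119041 expected counts, the read counts that RSEM assigned to genes. Levels are given as CPM (reads scaled to library size), with TMM factors that ran from 0.907 to 1.03 except for 1.31 in Ad-hHIF2 replicate 1. Ad-hHIF1 replicate 3 also stood apart, with 16.0% of its counts in satellite repeat genes against 0.433 to 4.28% in the other samples. Epas1, the mouse HIF2α gene to which reads of the human transgene can align, had a level of 1.77 ± 0.382 CPM in Ad-GFP and of 672 ± 78.1 CPM in Ad-hHIF2 organoids (SD, n = 3 each). Hif1a had a level of 219.5 ± 28.0 CPM in Ad-GFP and of 309 ± 9.81 CPM in Ad-hHIF1 organoids (SD, n = 3 each). Of 10 epithelial markers, all were detected at a mean of at least 1 CPM in every group, and their summed level was 3286 to 3611 CPM in Ad-GFP, 3472 to 3798 in Ad-hHIF2 and 3389 to 3800 in Ad-hHIF1 samples. Most of that sum came from keratins, while Epcam, which defines epithelium, was low and fell from 2.94 to 1.68 CPM between Ad-GFP and Ad-hHIF2 (adjusted p = 0.0472, edgeR). Of the other epithelial markers, Hnf4a fell from 33.9 to 23.9 CPM (adjusted p = 0.00471), Cdh1 rose from 218 to 315.5 CPM (adjusted p = 0.00313), and 7 did not pass. The 10 fibroblast markers summed to 12.3 to 19.3 CPM in Ad-GFP, 10.1 to 13.04 in Ad-hHIF2 and 10.2 to 21.2 in Ad-hHIF1 samples, and 4 of the 10 reached a mean of 1 CPM. Smooth muscle, endothelium and immune markers summed to at most 5.20, 7.56 and 18.4 CPM in any sample. Of the markers of these other cell types, 1 passed in Ad-hHIF2 against Ad-GFP, the leukocyte marker Ptprc, at 0.768 CPM in Ad-GFP and 0.0425 CPM in Ad-hHIF2 organoids (adjusted p = 0.00472, edgeR). It held 18 to 24 expected counts in Ad-GFP and 0 to 3 in Ad-hHIF2 samples and so entered the test through the Ad-GFP group alone. Between Ad-hHIF2 and Ad-hHIF1, Ptprc was again lower (0.0425 against 0.314 CPM) and the macrophage marker Cd68 higher (13.55 against 8.91 CPM), while of the epithelial markers Cdh1 was higher and Hnf4a and Krt19 lower, all at an adjusted p below 0.05 in edgeR. The part of these shifts in the results below was not tested. None of the markers was at 0 in all 9 samples.

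The first question was whether HIF2 changed these enzymes relative to Ad-GFP. Of the 10 genes, 8 could be tested, and HIF2 moved the family in both directions: P4ha2 and P4hb fell, whereas P4ha1, the 3 lysyl hydroxylases, Loxl2 and Loxl4 rose. Loxl2 rose 2.44-fold and P4ha2 fell 2.04-fold, and the other changes were between 1.21-fold and 1.46-fold. In edgeR's quasi-likelihood test with Benjamini-Hochberg adjustment over all 14987 genes tested, 6 members passed an adjusted p of 0.05 upward and 2 downward, and every Ad-hHIF2 sample lay outside the Ad-GFP range for all 8. Across all genes tested, 29.5% passed (15.9% higher and 13.6% lower) and 45.8% had groups that did not overlap (23.4% above and 22.4% below). With the study's 2-fold minimum as well, 1 member was higher and 1 lower, against 6.73% of all genes (2.9% higher and 3.83% lower). The 8 members had a median log2 fold change of 0.39, against -0.01 for all genes. All 8 held at least 310 expected counts in every sample, so the filter on low counts did not depend on the group in which they were high. In these bulk cultures, a change in the number of cells that make a transcript and a change in its amount per cell cannot be told apart.

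**Figure D1:**
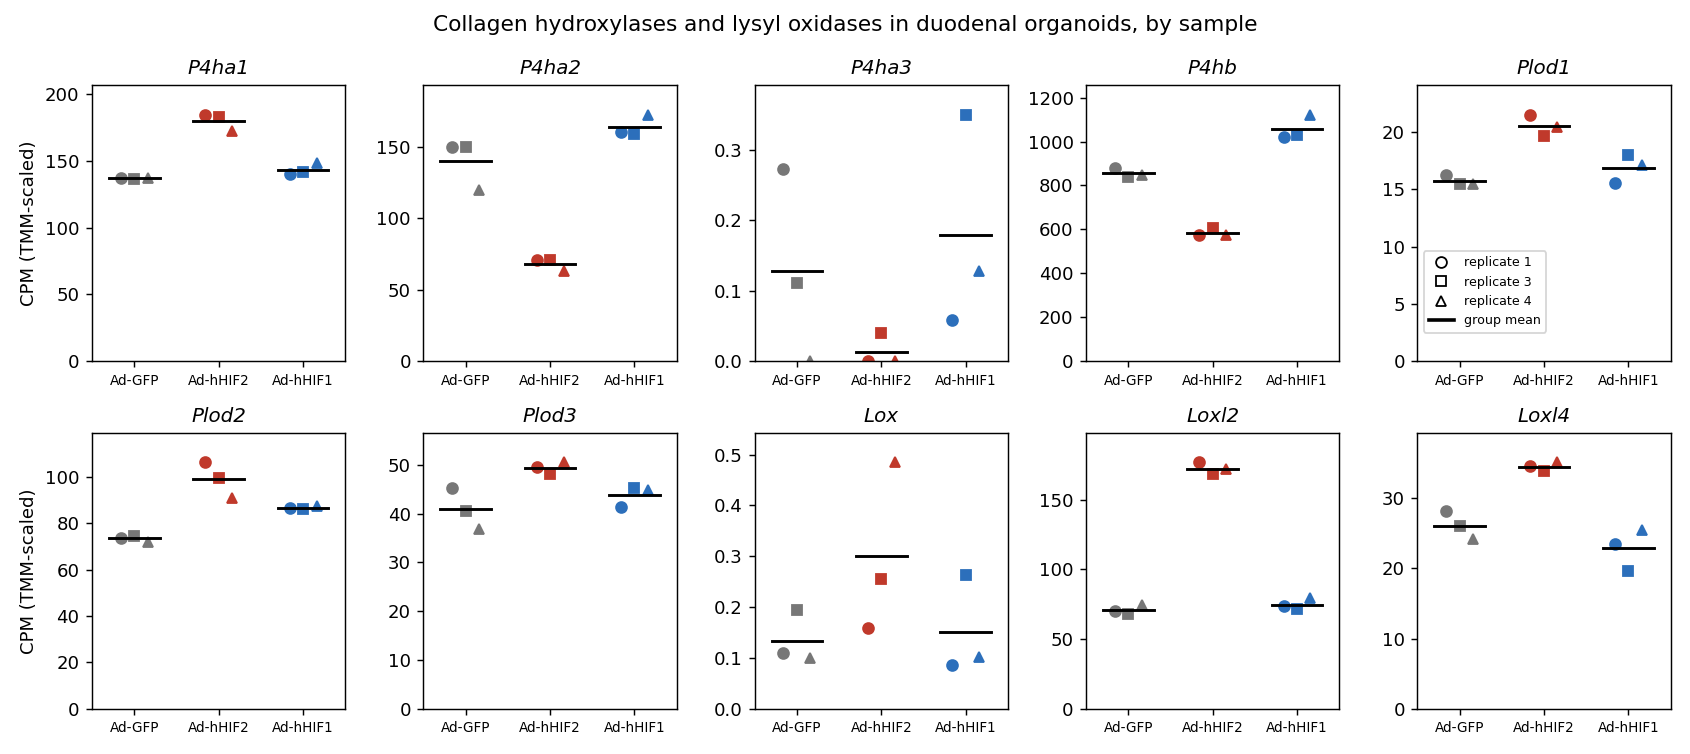
Level of each gene in each sample (CPM with TMM scaling, linear axes from 0), with points for the samples, shapes for the replicate numbers and black lines for the mean of each group. P4ha2 and P4hb are lower in the 3 Ad-hHIF2 samples than in all others, Loxl2 is higher, and P4ha3 and Lox stay below 0.5 CPM everywhere.

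P4ha1 encodes the most widely used catalytic α subunit of prolyl 4-hydroxylase. In CPM it stood at 137.4, 136.5 and 136.9 in Ad-GFP samples, at 184.6, 182.8 and 172.6 in Ad-hHIF2 samples and at 140.5, 141.3 and 148.3 in Ad-hHIF1 samples (replicates 1, 3 and 4, the order used throughout). The Ad-hHIF2 samples were highest, with no overlap, and the Ad-GFP samples differed from each other by less than 1 CPM. The log2 fold change between Ad-hHIF2 and Ad-GFP was 0.40 (standard error 0.0693, adjusted p = 0.00336, edgeR).

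P4ha2 encodes a second α subunit, which forms its own tetramer with P4hb. It stood at 149.7, 149.6 and 119.9 CPM in Ad-GFP samples, at 70.7, 70.9 and 62.8 CPM in Ad-hHIF2 samples and at 160.5, 159.2 and 172.6 CPM in Ad-hHIF1 samples. All 3 Ad-hHIF2 samples lay far below the lowest Ad-GFP sample, and all 3 Ad-hHIF1 samples lay above the highest. Under HIF2, P4ha2 fell by 1.03 on the log2 scale (standard error 0.103, 95% confidence interval -1.27 to -0.80, adjusted p = 0.000179, edgeR). The interval spans the 2-fold line, and the change was below 2-fold without Ad-GFP replicate 1, without Ad-GFP replicate 3 or without Ad-hHIF2 replicate 4, with a range of -1.12 to -0.97 over the 6 samples left out in turn. With libraries scaled to their totals alone, P4ha2 stood at -0.77 and still passed, and on log2(TPM + 1) it stood at -0.62 and the call was lost (adjusted p = 0.223, limma).

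P4hb, the disulfide isomerase that serves as β subunit and also as a partner of microsomal triglyceride transfer protein, was the most abundant member. It stood at 881.6, 839.6 and 849 CPM in Ad-GFP samples, at 574, 605 and 577 CPM in Ad-hHIF2 samples and at 1022, 1028 and 1123 CPM in Ad-hHIF1 samples. The groups formed separate bands, with Ad-hHIF2 lowest and Ad-hHIF1 highest. Under HIF2, P4hb fell by 0.55 on the log2 scale (standard error 0.0776, adjusted p = 0.00120, edgeR). When libraries were scaled to their totals alone, the direction was kept at -0.29 but the call was lost (adjusted p = 0.250, edgeR). On log2(TPM + 1) the P4hb value was smaller still, at -0.14 (adjusted p = 0.834, limma). In TPM, P4hb stood at 68.6, 69.9 and 68.8 in Ad-GFP samples and at 91.0, 53.97 and 49.9 in Ad-hHIF2 samples. Replicates 3 and 4 were thus below the Ad-GFP range, and replicate 1 alone was above it.

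P4ha3, the remaining α subunit gene, was nearly silent. Its expected counts were 10, 4 and 0 in Ad-GFP, 0, 2 and 0 in Ad-hHIF2 and 2, 8 and 5 in Ad-hHIF1 samples, too few for the test, and a count of 0 allows up to 3 counts. At this depth no difference in P4ha3 was detectable.

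The make-up of the α subunits was also compared within each sample as a share of TPM (transcript abundance per unit of length), which corrects for transcript length and does not depend on how libraries are scaled to each other. P4ha1 made up 35.4%, 34.6% and 37.4% of the summed TPM of P4ha1, P4ha2 and P4ha3 in Ad-GFP samples. In Ad-hHIF2 samples it made up 62.7%, 61.9% and 62.3%, and in Ad-hHIF1 samples 35.03%, 35.1% and 34.1%. By TPM, P4ha1 was thus below P4ha2 in the Ad-GFP samples and above it in the 3 Ad-hHIF2 samples, while the Ad-hHIF1 samples overlapped the Ad-GFP range. By expected counts, with no correction for length, the P4ha1 share was 47.8%, 47.7% and 53.3% in Ad-GFP, 72.3%, 72.04% and 73.3% in Ad-hHIF2 and 46.7%, 47.0% and 46.2% in Ad-hHIF1 samples, so that both α subunits were about equal in Ad-GFP and the Ad-hHIF1 samples lay just below that range. A two-sided exact permutation test gave p = 0.10 for Ad-hHIF2 against Ad-GFP, the smallest that 3 against 3 samples allow, so no threshold of 0.05 could be reached. The ratio of P4ha1 to P4ha2 was 0.559 ± 0.0346 (SD, n = 3) in TPM in Ad-GFP and 1.65 ± 0.0278 in Ad-hHIF2 organoids, a 2.95-fold difference, and it differed 2.67-fold when expected counts were used in place of TPM.

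The β subunit transcript was in excess over the α subunits in every sample. P4hb stood at 4.39, 4.12 and 4.82 times the summed TPM of P4ha1 and P4ha2 in Ad-GFP samples, at 3.67, 4.06 and 3.86 times in Ad-hHIF2 samples and at 4.95, 4.46 and 5.14 times in Ad-hHIF1 samples. The Ad-hHIF2 samples were the lowest, though replicate 3 came close to the lowest Ad-GFP sample (exact permutation p = 0.10). By expected counts, the ratio was 2.93 to 3.31 in Ad-GFP, 2.25 to 2.45 in Ad-hHIF2 and 3.40 to 3.50 in Ad-hHIF1 samples. By that measure no groups overlapped.

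**Figure D2:**
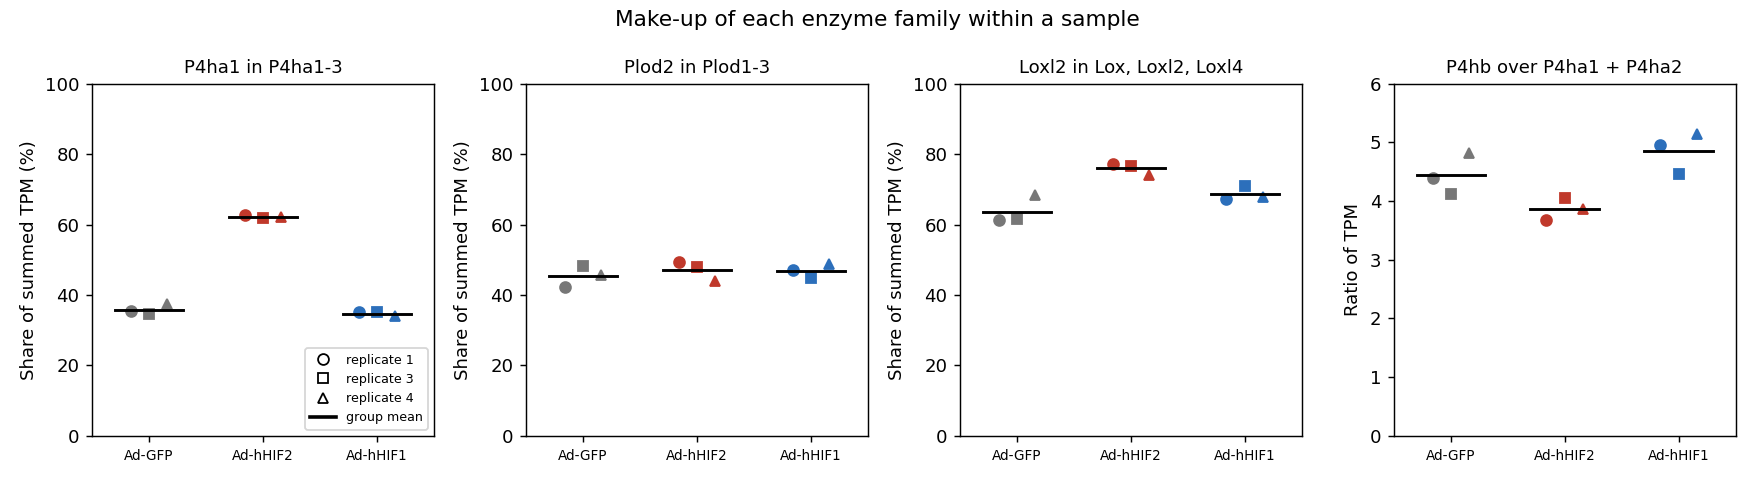
Make-up of each enzyme family in each sample, as the share of the summed TPM of the family (%) or, on the right, as a ratio of TPM, with shapes for the replicate numbers and black lines for group means. P4ha1 rises from 34.6 to 37.4% in Ad-GFP to 61.9 to 62.7% in Ad-hHIF2 samples, whereas the share of Plod2 overlaps between all groups.

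The lysyl hydroxylases rose together, by less than 1.5-fold with TMM scaling. Plod2, which encodes the enzyme that hydroxylates lysines in the collagen telopeptides, stood at 73.6, 74.6 and 71.9 CPM in Ad-GFP samples, at 106.2, 99.3 and 90.9 CPM in Ad-hHIF2 samples and at 86.5, 85.8 and 87.4 CPM in Ad-hHIF1 samples. The groups were in the order Ad-GFP, Ad-hHIF1, Ad-hHIF2 without overlap. Its log2 fold change between Ad-hHIF2 and Ad-GFP was 0.43 (standard error 0.0762, adjusted p = 0.00357, edgeR). Plod1, which acts on lysines of the triple helix, was the least abundant of the 3 and ran from 15.5 to 16.2 CPM in Ad-GFP and from 19.7 to 21.5 CPM in Ad-hHIF2 samples (log2 fold change 0.39, standard error 0.0759, adjusted p = 0.00583, edgeR). Plod3, whose product also adds sugars to hydroxylysine, ran from 36.9 to 45.2 CPM in Ad-GFP and from 48.1 to 50.5 CPM in Ad-hHIF2 samples (log2 fold change 0.27, standard error 0.0832, adjusted p = 0.0375, edgeR). The Plod3 call was the weakest of the 8. It was lost in 5 of the 6 fits that left out a sample, namely all but that without Ad-GFP replicate 1, with adjusted p-values of 0.0210 to 0.114 (edgeR), and Znhit1 on the opposite strand held up to 1158 expected counts.

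Since the lysyl hydroxylases moved alike, their proportions did not separate the groups. Plod2 made up 42.4 to 48.3% of the family's summed TPM in Ad-GFP, 44.0 to 49.3% in Ad-hHIF2 and 44.9 to 48.7% in Ad-hHIF1 samples, and Plod1 made up 8.78 to 10.7%, 9.52 to 11.1% and 8.46 to 12.0%.

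Among the lysyl oxidases, Loxl2 showed the clearest change of all members. Its product crosslinks collagen, including the type IV collagen of basement membranes. Loxl2 stood at 70.1, 67.7 and 74.4 CPM in Ad-GFP samples, at 176.9, 168.2 and 171.9 CPM in Ad-hHIF2 samples and at 73.8, 71.5 and 79.3 CPM in Ad-hHIF1 samples. The Ad-hHIF2 samples stood apart from the others, and the Ad-GFP and Ad-hHIF1 ranges overlapped. The log2 fold change between Ad-hHIF2 and Ad-GFP was 1.29 (standard error 0.0737, adjusted p = 8.16e-06, edgeR).

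Loxl4 encodes a related lysyl oxidase-like enzyme. It stood at 28.1, 26.0 and 24.2 CPM in Ad-GFP samples, at 34.5, 33.9 and 35.1 CPM in Ad-hHIF2 samples and at 23.5, 19.7 and 25.5 CPM in Ad-hHIF1 samples. Again the Ad-hHIF2 samples were above all others (log2 fold change 0.40, standard error 0.0747, adjusted p = 0.00444, edgeR). Lox, the founding lysyl oxidase and a product of stromal cells in most tissues, had 4, 7 and 2 expected counts in Ad-GFP, 7, 13 and 15 in Ad-hHIF2 and 3, 6 and 4 in Ad-hHIF1 samples and could not be tested. Without a filter on low counts, its log2 fold change in Ad-hHIF2 against Ad-GFP was 1.13 (adjusted p = 0.485, edgeR), so a difference in Lox was not detectable at this depth. Loxl2 made up 61.3 to 68.3% of the summed TPM of Lox, Loxl2 and Loxl4 in Ad-GFP, 74.0 to 77.2% in Ad-hHIF2 and 67.1 to 70.9% in Ad-hHIF1 samples (exact permutation p = 0.10 for Ad-hHIF2 against Ad-GFP). By expected counts, its share was 71.3 to 75.4% in Ad-GFP, 82.8 to 83.6% in Ad-hHIF2 and 75.6 to 78.2% in Ad-hHIF1 samples. By that measure the Ad-hHIF1 samples lay just above the Ad-GFP range.

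The size of the smaller rises depended on how libraries were scaled. With libraries scaled to their totals alone, the log2 fold changes between Ad-hHIF2 and Ad-GFP were 0.66 for P4ha1, 0.65 for Plod1, 0.70 for Plod2, 0.53 for Plod3 and 0.66 for Loxl4, and all 5 still passed in edgeR, while the median of all genes also moved, to 0.24.

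Per transcript length, the order of the members was similar in Ad-GFP and Ad-hHIF1 organoids. In Ad-GFP organoids the mean levels were 69.1 ± 0.690 TPM (SD, n = 3) for P4hb, 10.04 ± 1.08 for P4ha2, 5.59 ± 0.273 for P4ha1, 3.62 ± 0.309 for Plod2, 3.56 ± 0.387 for Plod3, 1.68 ± 0.0265 for Loxl2, 0.960 ± 0.147 for Loxl4 and 0.780 ± 0.0557 for Plod1. Plod2 and Plod3 did not differ beyond their spread, and neither did Loxl4 and Plod1. P4hb ranked first in all 9 samples. P4ha2 ranked above P4ha1 in each Ad-GFP and Ad-hHIF1 sample and below it in each Ad-hHIF2 sample, where P4ha1 came next after P4hb. TPM was read within samples because Ad-hHIF2 replicate 1 held 1.63 to 2.004 times the TPM of replicates 3 and 4 for each of the 8 tested members, and in limma on log2(TPM + 1) Loxl2 alone passed in Ad-hHIF2 against Ad-GFP. There the values were 0.76 for P4ha1, 0.37 for Plod1, 0.58 for Plod2, 0.47 for Plod3 and 0.50 for Loxl4. All but that of Plod1 were larger than with TMM scaling, though the calls were lost.

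**Figure D3:**
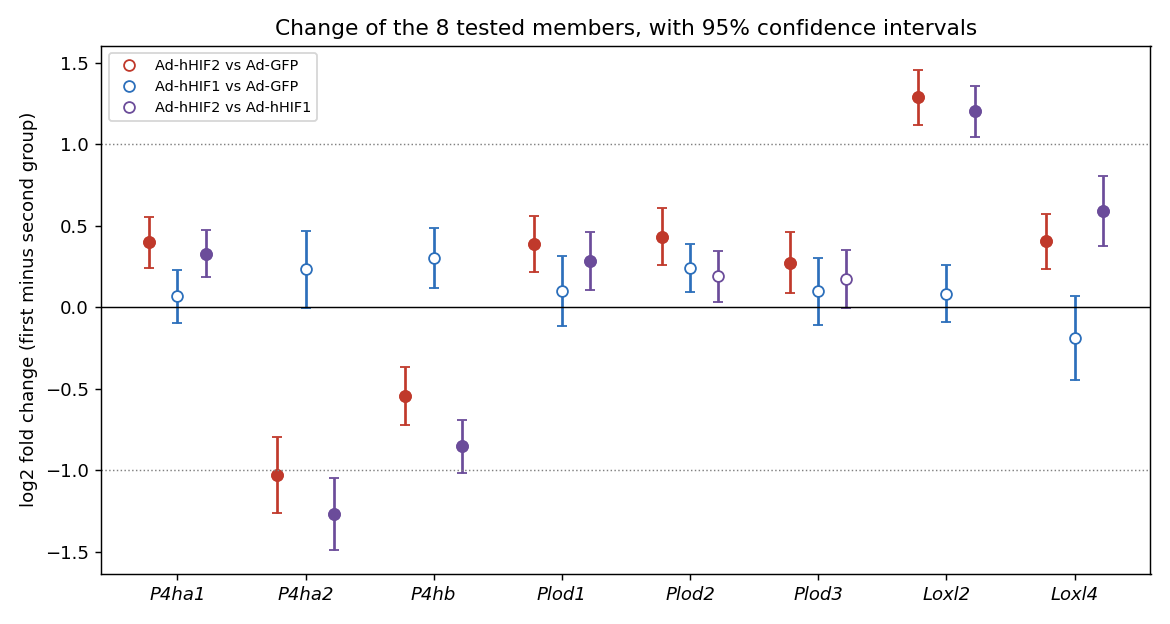
Log2 fold change of the 8 tested genes in the 3 comparisons, with 95% confidence intervals; filled points have an adjusted p below 0.05, open points do not, and dotted lines mark 2-fold. No blue point (Ad-hHIF1 against Ad-GFP) is filled, and P4ha2 and P4hb lie below 0 in both comparisons of Ad-hHIF2 and above 0 for Ad-hHIF1.

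The second question was whether HIF1 changed these genes. None of the 8 members passed in Ad-hHIF1 against Ad-GFP, as 0% of the 15233 genes tested passed in edgeR's quasi-likelihood test, and 0 members passed without Ad-hHIF1 replicate 3. The spread between samples was larger here, with a common biological coefficient of variation of 0.240 against 0.165 for Ad-hHIF2 and Ad-GFP. The study's own test, EBSeq, did call genes in both directions in this comparison, so the absence of calls does not show that HIF1 had no effect. At an unadjusted p below 0.05 there were 2 members and 1308 genes in all, or 8.59%. The 2 members were P4hb, with a log2 fold change of 0.30 (95% confidence interval 0.12 to 0.49, adjusted p = 0.490, edgeR), and Plod2, with 0.24 (0.09 to 0.39, adjusted p = 0.490, edgeR). For 4 of the 8 members, P4ha1, P4ha2, P4hb and Plod2, the lowest Ad-hHIF1 sample exceeded the highest Ad-GFP sample. Across all genes the groups did not overlap for 17.4%, with Ad-hHIF1 above for 8.36% and below for 9.04%. DESeq2 called 1 member, P4hb, at 0.31 (adjusted p = 0.000995, DESeq2), and 68 genes higher and 76 lower in all. For Loxl2 the log2 fold change was 0.08 with an interval of -0.09 to 0.26, for P4ha1 it was 0.07 with an interval of -0.09 to 0.23, and for Loxl4 it was -0.19 with an interval of -0.45 to 0.07. The comparisons of each HIF with Ad-GFP share the same 3 Ad-GFP samples.

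The third question, whether the 2 HIFs differed from each other, was tested directly in a fit of all 9 samples. Of the 8 members, 6 passed, 4 higher and 2 lower in Ad-hHIF2, where 25.8% of 15556 genes passed (13.7% higher and 12% lower). At 2-fold there were 2, Loxl2 higher and P4ha2 lower, against 6.11% of all genes (2.42% higher and 3.7% lower). The samples of the 2 HIF groups did not overlap for any of the 8 members, 6 of them higher and 2 lower in Ad-hHIF2, whereas the groups did not overlap for 41.8% of all genes (22.7% above and 19.1% below). P4ha2 was 2.41-fold lower than in Ad-hHIF1 organoids (log2 fold change -1.27, standard error 0.0993, adjusted p = 1.10e-05, edgeR) and P4hb was 1.81-fold lower (-0.85, standard error 0.0730, adjusted p = 2.01e-05, edgeR). Loxl2 was 2.301-fold higher (1.20, standard error 0.0709, adjusted p = 1.71e-06, edgeR) and Loxl4 1.505-fold higher (0.59, standard error 0.0966, adjusted p = 0.00150, edgeR). P4ha1 was 1.26-fold higher (adjusted p = 0.00422, edgeR) and Plod1 1.22-fold higher (adjusted p = 0.0256, edgeR). The Plod1 call was lost in 8 of 19 alternatives: without Ad-hHIF2 replicate 1, 3 or 4, without Ad-hHIF1 replicate 1, without a count filter (adjusted p = 0.0624, edgeR), with the replicate block and on both TPM scales. Plod2 did not pass, with a log2 difference of 0.19 (95% confidence interval 0.03 to 0.35, adjusted p = 0.0754, edgeR), and it passed without Ad-hHIF2 replicate 4 (adjusted p = 0.0429, edgeR) and with limma-voom (adjusted p = 0.0460). Plod3 did not pass either, at 0.17 with an interval of -0.01 to 0.35 (adjusted p = 0.147, edgeR). With libraries scaled to their totals, the values were 0.51 for P4ha1 and 0.47 for Plod1, which both passed in edgeR. They were 0.38 for Plod2 and 0.36 for Plod3, and neither passed. On log2(TPM + 1) in limma, P4ha1 (0.53, adjusted p = 0.276) and P4ha2 (-0.93, adjusted p = 0.0662) did not pass. Nor did P4hb (-0.57, adjusted p = 0.289) and Loxl4 (0.53, adjusted p = 0.141, limma). On log2(TPM + 0.1), P4ha2 passed (-1.03, adjusted p = 0.0430, limma), while P4ha1, P4hb and Loxl4 did not. The lowest adjusted p-values between the HIFs with TMM scaling in edgeR were those of P4ha2, P4hb and Loxl2.

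RSEM also gives each gene a transcript length, averaged over its isoforms by their estimated abundance. The annotation used for it can differ from GENCODE M21, since Lox had a weighted length of 3604 bases in some samples and M21 lists Lox transcripts of 4468 and 4741 bases. In M21, Plod2 has 5 transcripts, of which 2 are coding with 3649 and 3663 bases and 3 are fragments with a retained intron of 596 to 1276 bases. Its weighted length was 2638, 2541 and 2667 bases in Ad-GFP samples, 2972, 2925 and 2976 bases in Ad-hHIF2 samples and 2990.1, 2933 and 2813 bases in Ad-hHIF1 samples. Both HIF groups lay above the Ad-GFP range, by 1.13-fold and 1.11-fold on the mean, and overlapped with each other (exact permutation p = 0.10 for each HIF against Ad-GFP and 0.70 between them). Plod3 showed the same order, with 1499.7 to 1611 bases in Ad-GFP, 1672 to 1723 in Ad-hHIF2 and 1628 to 1695 in Ad-hHIF1 samples. P4ha2 was longer in Ad-hHIF2 than in Ad-GFP samples, at 1928 to 2031 against 1723 to 1916 bases, and its Ad-hHIF1 samples overlapped both. The weighted length of Loxl2 ranged from 5229 to 5310 bases over all samples with overlapping groups. Those of P4ha1, P4hb, Plod1 and Loxl4 also overlapped between the groups in every comparison. Among 8750 genes with at least 10 counts in every sample and a length that varied, 9.57% were longer in all Ad-hHIF2 than in any Ad-GFP sample and 5.89% were longer in all Ad-hHIF1 than in any Ad-GFP sample. The lengths rest on isoform estimates from short reads, and with 3 samples a group the test cannot pass 0.05.

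**Figure D4:**
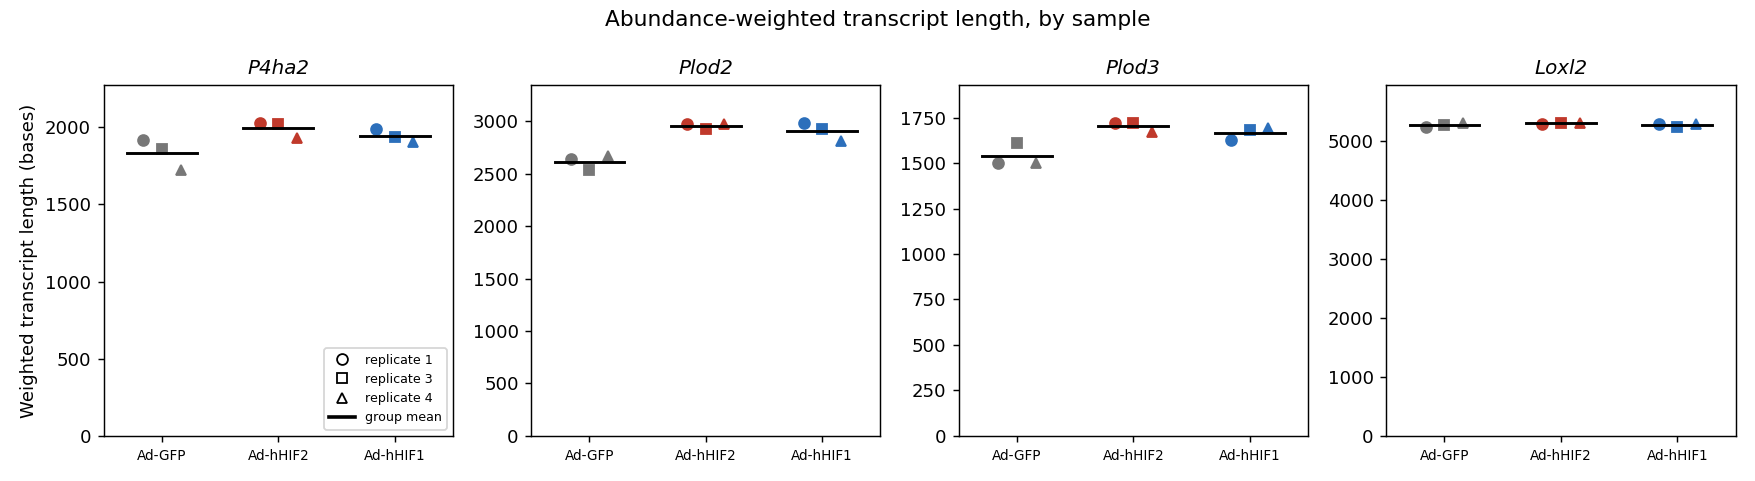
Transcript length of 4 members, averaged over isoforms by estimated abundance, in bases from 0, with shapes for the replicate numbers and black lines for group means. Plod2 is longer in all samples of both HIF groups (2813 to 2990.1 bases) than in the Ad-GFP samples (2541 to 2667 bases), while Loxl2 shows no separation.

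Other genes of the pathway were taken from 5 lists. Their counts are read against the 29.5% of all genes that passed in Ad-hHIF2 against Ad-GFP (15.9% higher and 13.6% lower). In the list of collagen modification and folding, 13 of 14 genes were tested, 2 rose, 1 fell and 10 did not pass (median log2 fold change 0.13), so the share that passed was not above that of all genes. P3h2, a prolyl 3-hydroxylase, rose from 2.04 to 3.45 CPM (0.75, adjusted p = 0.0369, edgeR), and Serpinh1, the collagen chaperone HSP47, rose from 47.5 to 57.9 CPM (0.29, adjusted p = 0.0135). P3h3, another member of the prolyl 3-hydroxylase family, fell from 3.19 to 1.503 CPM (-1.06, adjusted p = 0.0388). Loxl1 and Loxl3, the lysyl oxidases outside the 10 genes, were at or below 2.28 CPM on average in every group and did not pass. The calls in this list were not stable: 2 rose without Ad-GFP replicate 1, 0 rose without Ad-hHIF2 replicate 3 and 1 rose without any other single sample, and the fall of a gene was kept only without Ad-hHIF2 replicate 3. In the direct comparison with Ad-hHIF1, 0 of 13 passed and 2 had an unadjusted p below 0.05, against 25.8% and 37.4% of all genes.

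The list of collagen secretion and propeptide removal had 6 of 12 tested genes higher, 0 lower and a median of 0.26, where 15.9% of all genes were higher and 13.6% lower. The 6 were Mia3, the cargo receptor TANGO1 (37.6 to 55.5 CPM, 0.57, adjusted p = 0.00194, edgeR), the COPII coat genes Sec24d (0.65, adjusted p = 0.00422), Sec23a (0.48, adjusted p = 0.00260) and Sec13 (0.25, adjusted p = 0.0312), Tmem131, which takes part in procollagen export (0.54, adjusted p = 0.00224), and Tll1. Tll1, a protease that trims procollagen, was at 0.162 CPM in Ad-GFP and 3.92 CPM in Ad-hHIF2 organoids (4.50, adjusted p = 3.41e-05). With 2.01 to 7.96 expected counts in Ad-GFP against 130 to 218 in Ad-hHIF2 samples, it entered the test only through the group where it was high, so its call is no support for the list and 5 of the 6 remain without it. Ctage5, a partner of Mia3 in export, did not pass and stood at 52.4 CPM in Ad-GFP and 46.8 CPM in Ad-hHIF2 organoids (-0.16, adjusted p = 0.196). Against Ad-hHIF1, 6 of 12 passed upward, where 13.7% of all genes did. Tll1, with 9.11 to 20.54 expected counts in Ad-hHIF1 samples, was again 1 of them and again entered only through Ad-hHIF2, and 5 remain without it. With Tll1 included, 5 to 6 passed when a sample was left out, in either comparison.

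Of the disulfide isomerases and partners of P4hb, all 12 were tested and 2 rose, 2 fell and 8 did not pass (median 0.04), so that 4 of 12 is near the 29.5% of all genes that passed. Ero1l, the oxidase that recharges P4hb, rose from 524.6 to 1367 CPM (1.39, adjusted p = 1.64e-05, edgeR), and Erp44, which retains it in the endoplasmic reticulum, rose by 0.29 (adjusted p = 0.0150). Hspa5, the chaperone BiP, fell from 2283 to 1377 CPM (-0.73, adjusted p = 0.000475), and Hsp90b1 fell from 982 to 686 CPM (-0.51, adjusted p = 0.00229). In mean TPM, Hsp90b1 stood at 48.3 ± 4.07 in Ad-GFP and 49.5 ± 21.3 in Ad-hHIF2 organoids (SD, n = 3 each). Its Ad-hHIF2 samples ran from 36.2 to 74.1 TPM, on both sides of the Ad-GFP range of 44.6 to 52.6. Hspa5 likewise ran from 69.4 to 135.4 TPM in Ad-hHIF2 and from 91.0 to 108 in Ad-GFP samples. With this spread, TPM neither shows nor excludes the 2 falls. The higher count was 1 without Ad-GFP replicate 1 or 3 or Ad-hHIF2 replicate 1 or 3, while 2 fell in every such fit. The other isomerases Pdia3, Pdia4, Pdia5, Pdia6 and Txndc5 had values between -0.09 and 0.35 and did not pass. In this list, as in P4hb itself, the genes that fell in Ad-hHIF2 organoids stood highest in Ad-hHIF1 organoids, where Hspa5 was at 2929 CPM and Hsp90b1 at 1340.0 CPM. Against Ad-hHIF1, 1 rose and 4 fell (Hspa5, Hsp90b1, Pdia4 and Pdia6), where 13.7% of all genes were higher and 12% lower. In Ad-hHIF1 against Ad-GFP, 5 of the 12 had an unadjusted p below 0.05, as did 8.59% of all genes, and 0 passed in edgeR, while DESeq2 called 5 of the 12 higher and 68 of all 15233 genes.

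Genes that supply copper and ascorbate gave 3 of 9 tested higher, 0 lower and a median of 0.04, where 15.9% of all genes were higher and 13.6% lower. The 3 were Slc31a2, a copper transporter (3.93 to 8.12 CPM, 2.07-fold, adjusted p = 0.00247, edgeR), Slc31a1, the main copper importer (0.51, adjusted p = 0.00999), and Atp7a, which loads copper into secreted enzymes such as the lysyl oxidases (0.26, adjusted p = 0.0443). Of these, Slc31a2 also passed against Ad-hHIF1, and 2 to 3 genes were called higher when each sample was left out in turn, with 1 called lower without Ad-GFP replicate 4. Slc31a1 stood at 29.7 CPM in Ad-hHIF2 and 29.4 CPM in Ad-hHIF1 organoids. The other copper genes of the list, Atp7b and Atox1, did not pass in Ad-hHIF2 against Ad-GFP, at -0.05 and -0.04. Slc23a1 and Slc23a2, the ascorbate transporters, did not pass, at -0.15 and -0.14. Slc23a1 held only 4.2 to 17.25 expected counts in Ad-GFP and 8.41 to 18.05 in Ad-hHIF2 samples, so its value says little.

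Among the collagen and elastin substrates, 3 of 15 tested genes rose, 1 fell and 11 did not pass (median 0.12), while 15.9% of all genes were higher and 13.6% lower, so the shares are close to the background. Col12a1, a fibril-associated collagen, rose from 4.84 to 38.2 CPM (3.00, adjusted p = 2.89e-06, edgeR). Col6a1 rose from 31.2 to 44.9 CPM (0.53, adjusted p = 0.0159) and Col4a2, of the basement membrane, from 92.6 to 118.9 CPM (0.36, adjusted p = 0.0197). Col5a1 fell from 40.2 to 33.1 CPM (-0.28, adjusted p = 0.0356). In mean TPM, Col5a1 stood at 0.597 ± 0.0551 in Ad-GFP and 0.703 ± 0.300 in Ad-hHIF2 organoids (SD, n = 3 each), so the fall was not seen on that scale. The higher count was 1 without Ad-hHIF2 replicate 3 and 2 without Ad-GFP replicate 3, and the lower count was 0 in 5 of the 6 fits that left out a sample and 2 without Ad-GFP replicate 4. Col4a1, the most abundant collagen of the list, was at 191.2 and 222 CPM and narrowly did not pass (0.22, adjusted p = 0.0533), though it passed against Ad-hHIF1 (0.35, adjusted p = 0.00505). The fibrillar collagens Col1a1, Col1a2 and Col3a1 were at 1.45 to 3.68 CPM in these 2 groups and did not pass. They also belong to the fibroblast marker list, whose summed level is given above, and the part of fibroblasts in these results was not tested. Lox and P4ha3 stayed below 0.5 CPM in the same libraries.

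**Figure D5:**
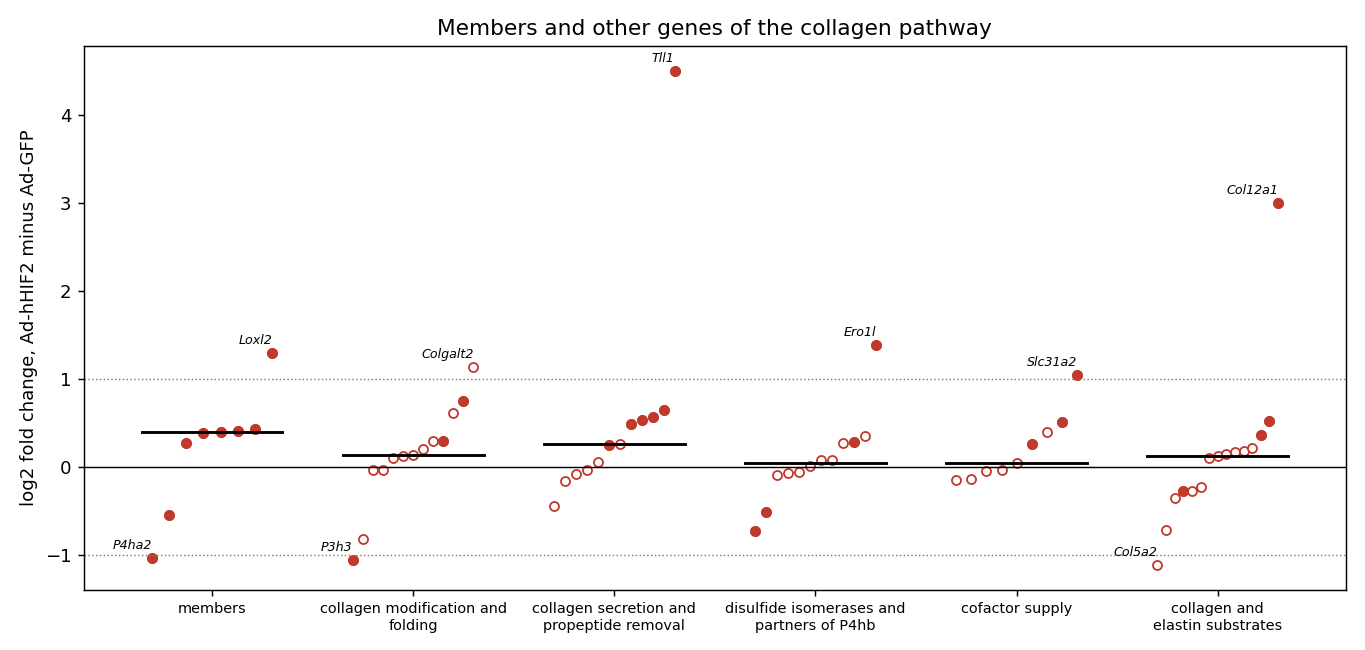
Log2 fold change between Ad-hHIF2 and Ad-GFP of each tested gene, by list, with black lines for the median; filled points have an adjusted p below 0.05, open points do not, and dotted lines mark 2-fold. Col12a1 (3.00) and Tll1 (4.50, with fewer than 8 counts in each Ad-GFP sample) lie far above the others, and the medians of the lists run from 0.04 to 0.26, against 0.39 for the 8 members.

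For each member that passed, the genes most like it across the 9 samples were found by Pearson's r of log2(CPM + 0.5) among 15556 genes. These values describe 9 points that fall into 3 groups and share their libraries, and they carry no test. Loxl2 was most like Pthlh (r = 0.999), Igfbp3 (0.999) and Abcc3 (0.998). Pthlh rose from 0.411 to 25.6 CPM and Igfbp3 from 198.4 to 1143 CPM between Ad-GFP and Ad-hHIF2. P4ha2 was most like Sqstm1 (0.997), Sdad1 (0.996) and Plin2 (0.996). P4hb was most like Hspa5 (0.995), Pgam1 (0.994) and Pdk1 (0.993), all of which were lowest in Ad-hHIF2 and highest in Ad-hHIF1 organoids, with Pdk1 at 116.1, 73.7 and 141.8 CPM in Ad-GFP, Ad-hHIF2 and Ad-hHIF1. P4ha1 was most like Agpat2 (0.994), Mlec (0.993) and Ctsa (0.991), and Loxl4 like Wdr19 (0.994), Iars2 (0.991) and Vegfa (0.988). The lysyl hydroxylases had lower values, with Wipi1 for Plod1 (0.987), Gdi2 for Plod2 (0.984) and Ppm1b for Plod3 (0.982).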

How the data were processed

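RNA of 9 duodenal organoid cultures was sequenced. The authors removed low-quality reads and estimated expected counts per gene with RSEM, and the deposited tables also hold the TPM, FPKM and abundance-weighted transcript length that RSEM derived from them. FPKM were not used. The aligner, genome build, annotation and strandedness are not given in the sources used here, and the authors' test, EBSeq, was not run. The deposited expected counts, not normalized, were rounded to whole numbers, filtered with filterByExpr and scaled by TMM in R 4.3.3. Groups were tested by edgeR 4.0.16 (glmQLFit and glmQLFTest, the quasi-likelihood method), with Benjamini-Hochberg adjustment over all genes tested and a threshold of 0.05. Comparisons of a HIF with Ad-GFP used the 6 samples of those groups, and that between the HIFs used all 9. CPM used TMM factors over all 9 samples. Standard errors came from the quasi-likelihood F statistic. Within-sample shares and lengths were compared with two-sided exact permutation tests over samples (scipy 1.17.1), and confidence intervals are at 95%.

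The genes and the lists were chosen with earlier results of these data known. Named genes are the 10 members, the genes of each list that passed in Ad-hHIF2 against Ad-GFP, and the 3 genes most like each member that passed; other genes were named after their values were seen. Ero1a, Ero1b and Mia2 were found in the tables as Ero1l, Ero1lb and Ctage5. Positions are from GENCODE M21, which matched 46005 of 46517 identifiers, and promoters from RefSeq. Replicate pairs were checked for duplicates, and for the closest pair the chi-square over its degrees of freedom was 23.7. The methods were tested on simulated data. Alternatives were other filters (none, or a minimum of 10 counts in each sample), other scalings (size factors by median ratio, or library totals), other tests (DESeq2 1.42.0, limma 3.58.1 with voom, and limma on log2 TPM with 1 or 0.1 added), the replicate block, another set of samples in the fit, and each sample left out in turn. Figures were drawn with matplotlib 3.10.9 in Python 3.11.15.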

Additional observations from a re-analysis of the deposited data

How the results depend on the processing

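In every alternative run, each tested member kept its direction in all 3 comparisons, and 6 members stayed above and 2 below the median of all genes in both comparisons of Ad-hHIF2, with P4ha3 and Lox added to the lower and the higher side without a filter. Scaling to total counts moved the median log2 fold change of all genes in Ad-hHIF2 against Ad-GFP from -0.01 to 0.24, and log2(TPM + 1) and log2(TPM + 0.1) moved it to 0.12 and 0.30. Relative to that median, P4hb stood at -0.54 and P4ha2 at -1.02 under total counts, where 1 member was called lower, 1 at 2-fold and 828 genes lower in all, so that 80.8% of the calls were higher against 53.9% with TMM. On log2(TPM + 1), 1 member was called, 1 higher and 0 lower, 1 at 2-fold, with 814 genes higher and 196 lower. On log2(TPM + 0.1), 1 member was called, 1 higher and 0 lower, 1 at 2-fold, with 899 genes higher and 210 lower. The cause was not tested. In Ad-hHIF2 against Ad-hHIF1, total counts called 804 genes lower (72.3% of calls higher, against 53.3%). There log2(TPM + 1) called 1 member, 1 higher and 0 lower, 1 at 2-fold, with 315 genes higher and 52 lower, and log2(TPM + 0.1) called 2 members, 1 higher and 1 lower, with 381 higher and 79 lower. In Ad-hHIF1 against Ad-GFP, genes called higher and lower were 258 and 126 without a filter, 68 and 76 with DESeq2 (with 1 member, P4hb, higher), 4 and 1 with limma-voom, and 6 and 1 in a fit of all 9 samples.

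With each sample left out in turn, 7 to 8 members were called in Ad-hHIF2 against Ad-GFP, 5 to 6 higher and 2 lower, 1 to 2 at 2-fold, among 1715 to 2550 genes higher and 1330 to 1989 lower in all. The count of lower genes was 1330 without Ad-hHIF2 replicate 1 and 1349 without replicate 3, against 2035. In Ad-hHIF2 against Ad-hHIF1, 5 to 6 members were called among 1483 to 2256 genes higher and 1111 to 2079 lower, the lowest without Ad-hHIF2 replicate 1.

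Same-numbered samples did not deviate together throughout: the correlation of their deviations from the group means was 0.09 to 0.21 for Ad-hHIF2 and Ad-GFP, but -0.13 to 0.15 for Ad-hHIF1 and Ad-GFP and -0.25 to -0.09 for the 2 HIFs, so the numbers were not taken to pair the samples. With the replicate block, 8 members were called in Ad-hHIF2 against Ad-GFP, as without it, among 2496 genes higher and 2135 lower of 14987. In Ad-hHIF1 against Ad-GFP, 0 members and 0 genes in all were called, also as without it. In Ad-hHIF2 against Ad-hHIF1, 5 members were called in place of 6, and Plod1 no longer passed. There 2001 genes were higher and 1637 lower of 15556. Depth limits P4ha3 and Lox, which never exceeded 15 expected counts.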
